A study of Mus musculus with 9 samples.

Results

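Gene expression in the large intestine of *Winnie* mice was compared with that of wild-type mice. Arrays were taken by their titles, 3 *Winnie* and 3 wild-type mice of 8 wk of age with 1 array per mouse, and these are 6 of the 9 arrays of the series. *Winnie* mice are a C57BL/6 line from an ENU-treated founder and carry in the N-terminal D3 domain of the mucin Muc2 a tyrosine in place of a cysteine. The wild-type mice were unmutagenised C57BL/6, and all 6 animals were labelled male. The other 3 arrays came from 8-wk-old males of *Eeyore*, a mixed C57BL/6 and NOD-SCID line from another ENU founder with a serine-to-proline substitution in the D4 domain of Muc2. They entered the estimate of the spread between mice and 1 direct comparison with *Winnie*. RNA came from whole, rinsed large intestine, with equal amounts of proximal and distal RNA combined per mouse, so muscle, nerve and fat of the bowel wall were part of each sample. Each array measured 45037 probe sets that are not controls. Of these, 22519 were above the median brightness and were tested, and they represented 11446 genes, each taken by its brightest probe set.

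Muc2 is the gel-forming mucin that goblet cells secrete and the main component of the mucus that separates bacteria from the intestinal epithelium. It is a very large, cysteine-rich glycoprotein that is folded and disulfide-linked in the endoplasmic reticulum (ER) before O-glycans are added in the Golgi. When unfolded protein collects in the ER, the sensors Ire1, Perk and Atf6 start the unfolded protein response (UPR), which raises chaperones and degradation machinery and, through Atf4, genes of amino acid supply and stress.

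The sex-linked transcripts went against the labels and are given before the comparison. *Xist*, which is transcribed from the inactive X chromosome of female cells, read 7371, 7916 and 8261 signal units in the 3 wild-type mice and 9.13, 61.8 and 44.2 in the 3 *Winnie* mice. The Y-linked *Eif2s3y* read 23.9, 4.73 and 24.1 in wild-type mice against 1345, 1074 and 1454 in *Winnie*. Another Y-linked gene, *Kdm5d*, read 52.1, 64.6 and 47.5 against 639.9, 519 and 667. *Kdm6a*, which escapes X inactivation, was lower in *Winnie* (log2 -0.92 ± 0.19, adjusted p = 0.00561, the log2 difference ± SE with 3 mice per group). The arrays labelled wild-type therefore carried a female pattern and those labelled *Winnie* a male one, so sex and genotype cannot be told apart between *Winnie* and wild-type. The *Eeyore* arrays carried the same pattern as *Winnie*, with *Xist* at 78.8, 107 and 65.7 (log2 1.49 ± 0.54, *Eeyore* over *Winnie*) and *Eif2s3y* at 1193, 1320 and 1265 (log2 -0.02 ± 0.49), which did not pass. Of 330 tested X-linked genes 21.5% passed the test, against 23.2% of all genes. That share does not separate sex from genotype and says nothing of sex in genes of other chromosomes.

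Pancreatic enzyme transcripts also differed between mice. The trypsinogen gene *Prss2* read 25149, 24964 and 223 in wild-type mice 1, 2 and 3 and 691, 1547 and 137 in the *Winnie* mice, so wild-type mouse 3 was low. Procolipase *Clps* read 19926, 17780 and 3047 against 533, 1054 and 289, and *Pnliprp2*, a pancreatic lipase-related gene, read 2451, 3039 and 1643 against 95.7, 207 and 101. Over the 6 tested pancreas and small bowel genes the summed signal was 13170 to 111963 in wild-type and 11439 to 17755 in *Winnie* mice. Wild-type mice 1 and 2 were therefore also left out together, a choice made after seeing the data, and each count of called list members below is followed by its value without them in square brackets. The wild-type group is then 1 mouse that is assumed to vary like the others, and 606 probe sets passed. The part of pancreatic tissue, or of sex, in the other differences was not tested.

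**Figure D1:**
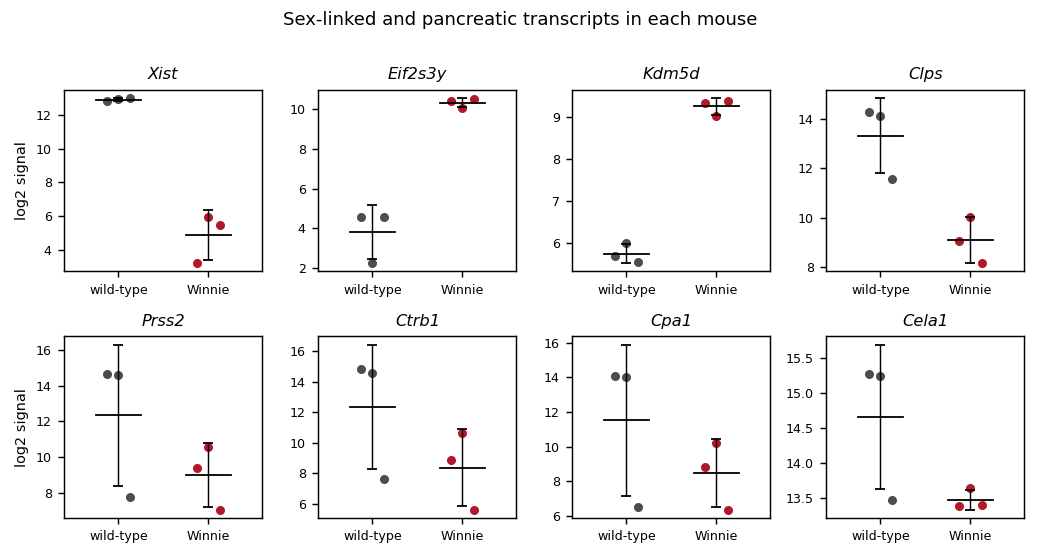
Log2 signal of 3 sex-linked and 5 pancreatic transcripts in each of the 3 wild-type and 3 *Winnie* mice (points), with the group mean (bar) and SD (whisker). *Xist* was high in every wild-type mouse and low in every *Winnie* mouse, *Eif2s3y* and *Kdm5d* were the reverse, and wild-type mouse 3 sat with the *Winnie* mice for *Prss2*, *Ctrb1*, *Cpa1* and *Cela1*.

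The *Winnie* and wild-type large intestines differed widely. Of the 22519 probe sets, 4834 (21.5%) passed the limma test at an adjusted p of 0.05, 2195 higher (9.75%) and 2639 lower (11.7%) in *Winnie*. Of the 11446 genes, 1291 were higher (11.3%) and 1368 were lower (12%). These shares are the background for the gene lists below and are not matched to the brightness of a list. Of 1377 called genes with several tested probe sets, 655 had another probe set called the same way. In 16 of them another probe set was called the opposite way. The 3 *Winnie* signals did not overlap the 3 wild-type signals in 44% of genes. Lack of overlap was also a condition for naming the largest rises and falls, so for those genes it is no added support. Changes of at least 2-fold were mostly falls, in 534 genes (4.67%) against 200 rises (1.75%), and in 5.24% and 1.6% of probe sets, while at least 4-fold the numbers were 42 and 33. The median difference over all genes was -0.05 on the log2 scale. The balance of rises and falls followed brightness: 26.2% of genes in the brightest quartile were higher and 10.4% lower, whereas 1.89% in the dimmest quartile were higher and 9.96% lower. The median log2 difference was 0.12 in the brightest quartile and -0.33 in the dimmest. Lists of bright genes are therefore also to be read beside the brightest quartile. The deposited signals share a trimmed mean, but the array medians were 118 to 129 in wild-type and 87.9 to 95.2 in *Winnie* mice. Centring each array on its median added 0.41 to the median difference of probe sets and turned the split into 7234 higher and 853 lower, and quantile normalization added 0.12 and gave 2385 and 1989. Directions below are those of the deposited scale. Where the geometric mean of the dimmer group was below the testing limit of 85.9 signal units, the fold is given as at least the value with each mouse of that group raised to this limit, and the log2 difference as measured. Counts of list members under another scaling, with the mean over probe sets or with 1 mouse left out are given where they moved by more than 1.5 times and by 2 or more genes.

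**Figure D2:**
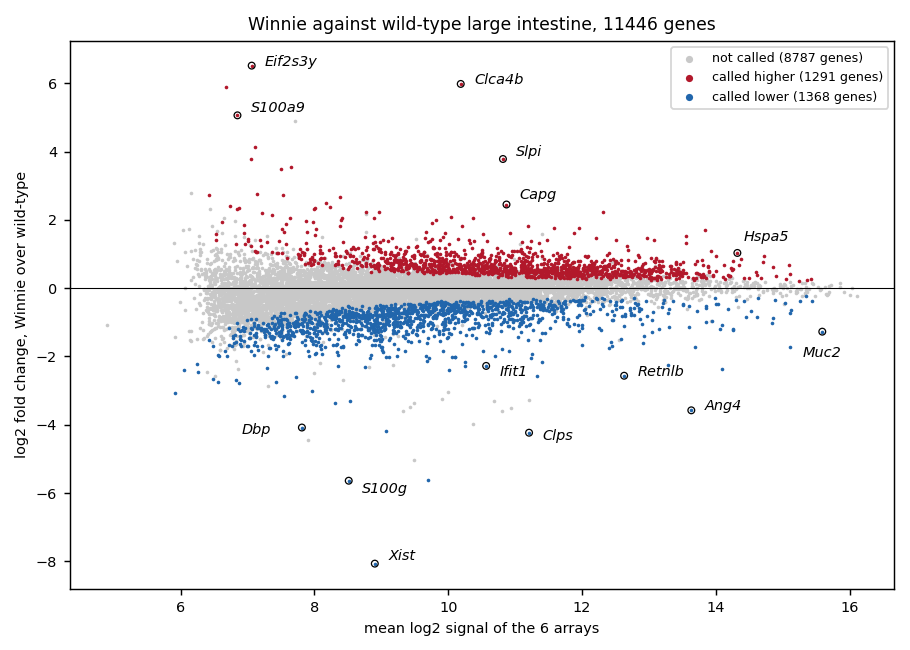
Each point is 1 of 11446 genes, placed by its mean log2 signal over the 6 arrays (horizontal axis) and its log2 fold change of *Winnie* over wild-type (vertical axis). Genes called higher (1291) lie mostly at high signal, genes called lower (1368) reach across the range, and the labelled genes are described in the text.

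**Figure D3:**
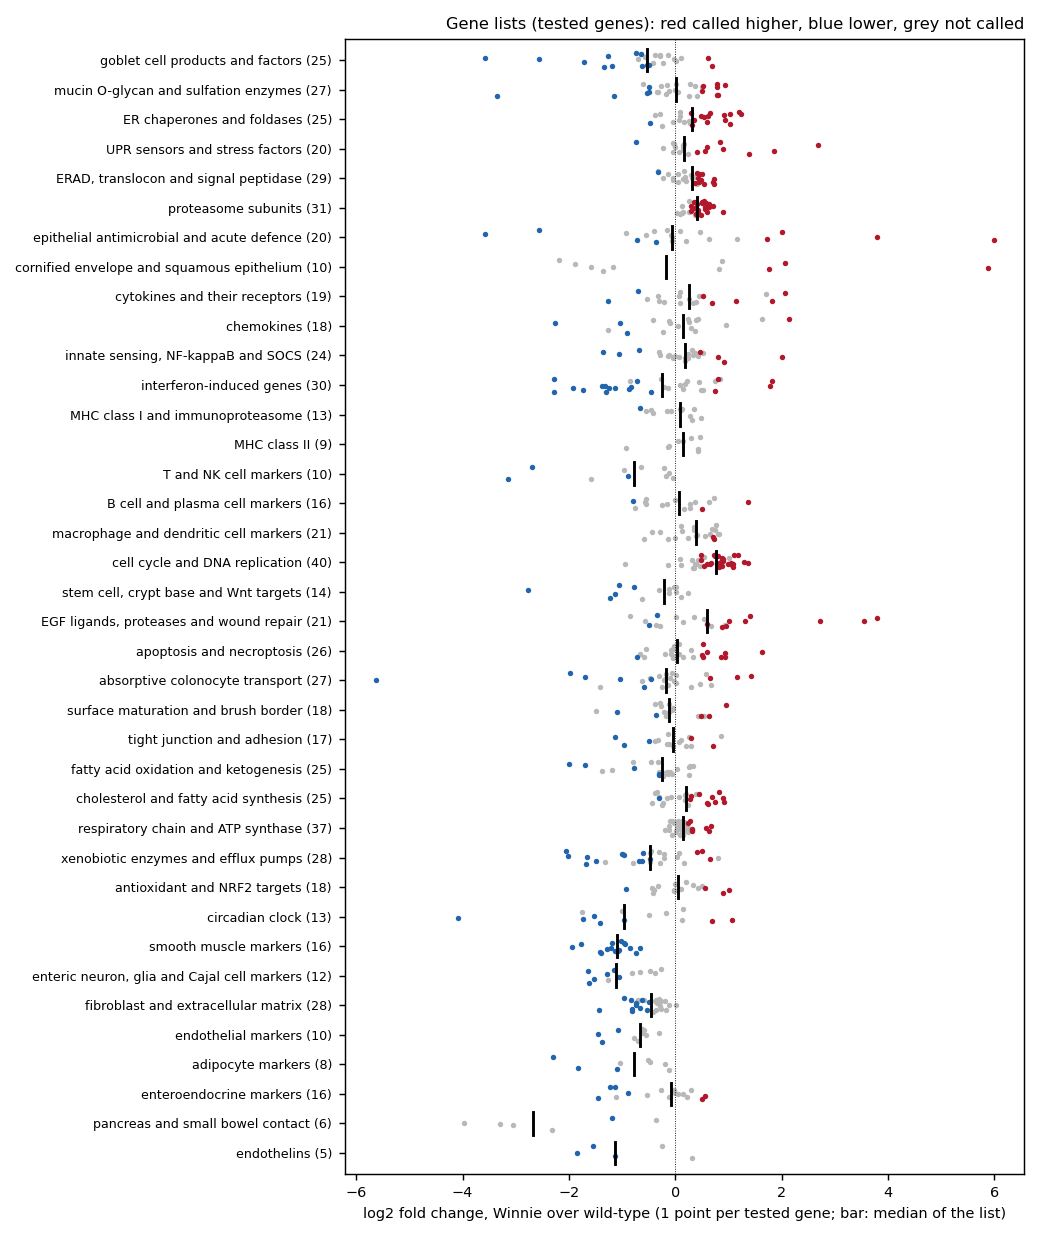
Log2 fold changes of *Winnie* over wild-type for the tested genes of 38 gene lists with at least 5 tested members, 1 point per gene with a bar at the median. Proteasome and cell cycle genes lie almost wholly to the right of 0 and smooth muscle genes wholly to the left, while goblet, interferon and defence genes spread to both sides.

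Of the goblet cell genes more were lower than higher in *Winnie*, *Muc2* among those lower. *Muc2* read 85946, 75006 and 70046 in wild-type and 34791, 25759 and 35694 in *Winnie* mice. The groups did not overlap, and *Muc2* was 2.42-fold lower (log2 -1.27 ± 0.12, adjusted p = 8.01e-05). Of 25 tested goblet cell genes, 11 were lower [5] and 2 were higher [1], with a median log2 difference of -0.54. The number lower was 6 with median centring. *Ang4*, an angiogenin with antibacterial activity, read 39574, 37588 and 56870 against 9991, 1463 and 3402 (log2 -3.58 ± 0.50, adjusted p = 0.000683). *Retnlb*, the resistin-like molecule of goblet cells, read 11466, 11034 and 28907 against 3206, 2395 and 2305 (log2 -2.56 ± 0.32, adjusted p = 0.000418). Every *Winnie* mouse was below every wild-type mouse for both genes. Among proteins of the mucus layer, *Clca1* read 66917, 61328 and 63932 against 23612, 14431 and 21332 (log2 -1.72 ± 0.17, adjusted p = 0.000111) and *Fcgbp* was 2.27-fold lower. The trefoil peptide gene *Tff3* did not pass (log2 -0.24 ± 0.08, adjusted p = 0.0547), nor did the mucus lectin gene *Zg16* (log2 0.01 ± 0.08). *Agr2*, an ER protein that mucin production needs, was higher in every *Winnie* mouse, at 27026, 28708 and 26722 against 43036, 41844 and 48519 (log2 0.69 ± 0.08, adjusted p = 0.000191). *Atoh1*, the factor that specifies secretory cells, was lower (log2 -0.54 ± 0.14). In RNA of whole bowel, fewer cells of a type and less RNA per cell cannot be told apart. *Atoh1* lost its call separately without *Winnie* mouse 2 (adjusted p = 0.0599), wild-type mouse 1 (0.0658) and wild-type mouse 2 (0.0628). *Atoh1* (log2 -0.13, adjusted p = 0.503) did not pass with median centring.

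The enzymes that build O-glycans on mucins were divided between rises and falls. Of 27 tested genes of O-glycans and sulfation, 7 were higher [2] and 5 were lower [1], with a median log2 difference of 0.00 that became 0.42 with median centring and -0.06 with quantile normalization. The number higher was 11 with median centring. Lower members numbered 2 with median centring, 3 without *Winnie* mouse 2 or 3 or wild-type mouse 3 and 2 without wild-type mouse 1 or 2. *B3gnt6*, the core 3 synthase of colonic mucin, read 1177, 1275 and 689.6 in wild-type and 166, 29.6 and 194 in *Winnie* mice (log2 -3.36 ± 0.57, adjusted p = 0.002). *A4gnt*, a glycosyltransferase of gastric mucins that lies outside the list, read 599.8, 503 and 478 against 65.1, 69.3 and 139.6 and was at least 5.19-fold lower. *Gal3st2*, a galactose sulfotransferase, was also lower (log2 -1.15 ± 0.17). *Galnt3*, which starts O-glycan chains, read 1785, 1926 and 1834 against 3493, 3623 and 3519 (log2 0.94 ± 0.11, adjusted p = 0.0003), and *B3gnt3* was higher too (log2 0.81 ± 0.15). With the mean over probe sets *Galnt3* did not pass (adjusted p = 0.0626). The *Winnie* and wild-type mice did not overlap for *B3gnt6*, *A4gnt* or *Galnt3*.

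ER chaperones and folding enzymes were higher in many members. Of 25 tested genes of this list, 14 were higher [6] and 1 was lower [0], with a median log2 difference of 0.30. *Hspa5*, the gene of the ER chaperone BiP (GRP78), read 14916, 15587 and 12617 in wild-type and 31795, 28084 and 28138 in *Winnie* mice, 2.05-fold higher (log2 1.03 ± 0.10, adjusted p = 8.65e-05). *Manf*, a secreted ER stress protein, read 4031, 4367 and 4461 against 9674, 10648 and 9802 (log2 1.23 ± 0.09, adjusted p = 8.93e-06). *Fkbp11*, a prolyl isomerase of the secretory pathway, was 2.3-fold higher. *Sdf2l1*, an ER protein that works with BiP (log2 1.03 ± 0.20), and *Hsp90b1*, the gene of GRP94 (log2 0.66 ± 0.12), were higher too. The groups of mice did not overlap for *Hspa5*, *Manf* or *Hsp90b1*. *Calr* and *Canx*, the lectin chaperones calreticulin and calnexin, did not pass (log2 0.07 ± 0.12 and log2 0.10 ± 0.12). The member that was lower was *Txndc5*, a thioredoxin-like foldase (log2 -0.47 ± 0.14). *Txndc5* lost its call separately without *Winnie* mouse 1 (adjusted p = 0.089), *Winnie* mouse 2 (0.0759), wild-type mouse 1 (0.0577) and wild-type mouse 2 (0.128). *Txndc5* (log2 -0.06, adjusted p = 0.782) did not pass with median centring.

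Promoters of *Hspa5* and *Hsp90b1* are shown because the ER stress response element (ERSE), through which Atf6 and Xbp1 act, is well known in this group. The search covered 300 bases, from 250 before to 50 after each RefSeq gene start (GRCm38.p6), on both strands. The search was for CCAAT and CCACG with any 9 bases between them, which was found in 0.137% of the 27025 genes with a window (a gene with several starts counted once). It was present in 8 of the 22 chaperone genes with a window, 4 of 13 called higher and 4 of 8 not called. Matches are in capitals.
Hspa5 (chr2:34771840-34772139, plus strand): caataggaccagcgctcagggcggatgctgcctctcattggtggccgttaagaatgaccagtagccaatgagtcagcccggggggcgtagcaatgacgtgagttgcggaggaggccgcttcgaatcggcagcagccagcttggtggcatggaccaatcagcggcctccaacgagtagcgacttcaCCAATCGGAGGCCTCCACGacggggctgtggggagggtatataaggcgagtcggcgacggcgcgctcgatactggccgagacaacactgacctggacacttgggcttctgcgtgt
Hsp90b1 (chr10:86705395-86705694, minus strand): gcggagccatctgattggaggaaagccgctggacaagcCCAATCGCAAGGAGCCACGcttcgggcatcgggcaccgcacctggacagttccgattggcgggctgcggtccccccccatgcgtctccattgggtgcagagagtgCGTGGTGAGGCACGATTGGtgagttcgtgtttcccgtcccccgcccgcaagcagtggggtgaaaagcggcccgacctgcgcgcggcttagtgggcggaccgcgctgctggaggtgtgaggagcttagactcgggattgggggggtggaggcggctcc
The window of *Hspa5* held 1 match and that of *Hsp90b1* 2. *Calr* and *Canx*, which were not called, also held the letters, so the match did not separate called from uncalled members.

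Among UPR sensors and stress factors, *Chac1*, *Trib3*, *Asns* and *Atf4* were among the members that were higher, while the transcripts of the sensors *Ern1*, *Eif2ak3* and *Atf6* did not pass. Of 20 tested genes of this list, 8 were higher [4] and 1 was lower [0], with a median log2 difference of 0.15. Higher members numbered 13 with median centring. *Chac1*, a glutathione-degrading enzyme induced by Atf4, read 173, 214 and 61.4 in wild-type and 895, 741 and 906 in *Winnie* mice (log2 2.68 ± 0.42, adjusted p = 0.00143). *Trib3*, a pseudokinase, read 133, 38.7 and 54.3 against 282, 195 and 237 (log2 1.85 ± 0.41, adjusted p = 0.00836, at least 2.37-fold). Asparagine synthetase, *Asns*, read 1518, 1393 and 1559 against 3947, 3747 and 4021, 2.62-fold higher (log2 1.39 ± 0.12, adjusted p = 3.74e-05). No *Winnie* mouse overlapped a wild-type mouse for these 3 genes. *Atf4* itself was higher (log2 0.41 ± 0.11), as were *Cebpb* (log2 0.90 ± 0.19), *Atf3* (log2 0.84 ± 0.24), *Herpud1* (log2 0.56 ± 0.11) and *Nupr1* (log2 0.60 ± 0.13). Outside the list, the mitochondrial folate enzyme *Aldh1l2* read 88.9, 144 and 142 against 842, 567 and 686 (log2 2.50 ± 0.28, adjusted p = 0.000208). *Xbp1*, whose splicing by Ire1 was not measured here, read 10608, 9560 and 10487 against 9830, 9927 and 10865 and did not pass. *Ern1* (Ire1, log2 -0.03 ± 0.19), *Eif2ak3* (Perk, log2 0.23 ± 0.16), *Atf6* (log2 0.16 ± 0.15) and *Ddit3* (CHOP, log2 -0.05 ± 0.17) did not pass either. The member that was lower, *Ern2*, is the Ire1 form of mucosal epithelium (log2 -0.74 ± 0.16). *Atf4* lost its call separately without *Winnie* mouse 2 (adjusted p = 0.0616), *Winnie* mouse 3 (0.0699), wild-type mouse 1 (0.0787) and wild-type mouse 2 (0.0603). *Atf3* lost its call separately without *Winnie* mouse 2 (adjusted p = 0.1), *Winnie* mouse 3 (0.0692), wild-type mouse 1 (0.0965) and wild-type mouse 2 (0.0835). *Ern2* (log2 -0.33, adjusted p = 0.168) did not pass with median centring. *Atf4* (log2 0.29, adjusted p = 0.0847) did not pass with quantile normalization.

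Windows of *Chac1*, *Trib3* and *Asns* are shown for the C/EBP-ATF composite site, through which Atf4 acts. The letters TGATGNAA occurred on either strand in 4.51% of all genes with a window and in 2.75% of tested genes with one. In this list 6 of 18 genes with a window held them, 6 of 8 called higher (*Asns*, *Atf3*, *Chac1*, *Herpud1*, *Nupr1* and *Trib3*) and 0 of 10 not called. The letters were chosen with the values known, and the match is in capitals.
Chac1 (chr2:119350992-119351291, plus strand): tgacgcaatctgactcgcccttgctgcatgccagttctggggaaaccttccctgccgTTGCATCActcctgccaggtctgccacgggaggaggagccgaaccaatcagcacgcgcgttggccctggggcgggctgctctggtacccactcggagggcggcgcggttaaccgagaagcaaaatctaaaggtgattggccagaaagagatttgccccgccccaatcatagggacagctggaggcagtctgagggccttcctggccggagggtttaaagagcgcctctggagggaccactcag
Trib3 (chr2:152344011-152344310, minus strand): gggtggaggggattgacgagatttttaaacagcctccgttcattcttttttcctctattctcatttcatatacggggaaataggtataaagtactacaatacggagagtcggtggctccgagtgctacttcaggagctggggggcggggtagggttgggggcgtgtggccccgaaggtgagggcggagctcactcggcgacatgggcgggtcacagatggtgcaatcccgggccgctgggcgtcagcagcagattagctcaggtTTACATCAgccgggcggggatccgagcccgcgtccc
Asns (chr6:7693160-7693459, minus strand): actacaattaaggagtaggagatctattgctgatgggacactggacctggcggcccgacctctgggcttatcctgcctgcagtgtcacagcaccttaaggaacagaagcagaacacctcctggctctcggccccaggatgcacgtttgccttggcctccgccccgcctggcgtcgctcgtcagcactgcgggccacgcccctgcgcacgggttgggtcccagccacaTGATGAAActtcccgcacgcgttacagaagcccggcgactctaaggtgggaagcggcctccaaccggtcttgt
A match describes the sequence and was not tested as a binding site.

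Machinery that moves proteins into the ER and degrades them was higher in many subunits. Of 29 tested genes of ER-associated degradation, the translocon and signal peptidase, 11 were higher [2] and 1 was lower [0], with a median log2 difference of 0.32. The count of higher genes became 24 with median centring. The rises included the translocon subunit *Sec61a1* (log2 0.44 ± 0.09), its associated proteins *Ssr2* (log2 0.72 ± 0.12), *Ssr3* (log2 0.54 ± 0.09) and *Ssr4* (log2 0.73 ± 0.10), and *Derl2*, a protein of retrotranslocation (log2 0.74 ± 0.10). With the mean over probe sets *Ssr4* (adjusted p = 0.127) and *Derl2* did not pass. *Sel1l*, the partner of the ligase Hrd1, did not pass (log2 0.18 ± 0.11). Of 31 tested proteasome subunits, 22 were higher [1] and none was lower (0 at an unadjusted p under 0.05), with a median log2 difference of 0.40. Those called higher numbered 12 with quantile normalization, 14 without *Winnie* mouse 2 and 13 without wild-type mouse 2. In all 31 subunits the difference was above 0. *Psmd14*, the deubiquitinase of the lid, read 3173, 3580 and 2787 against 5682, 6508 and 5586 (log2 0.90 ± 0.11, adjusted p = 0.000351), and *Psmd12* (log2 0.70 ± 0.12) and *Psmc6* (log2 0.63 ± 0.10) followed.

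**Figure D4:**
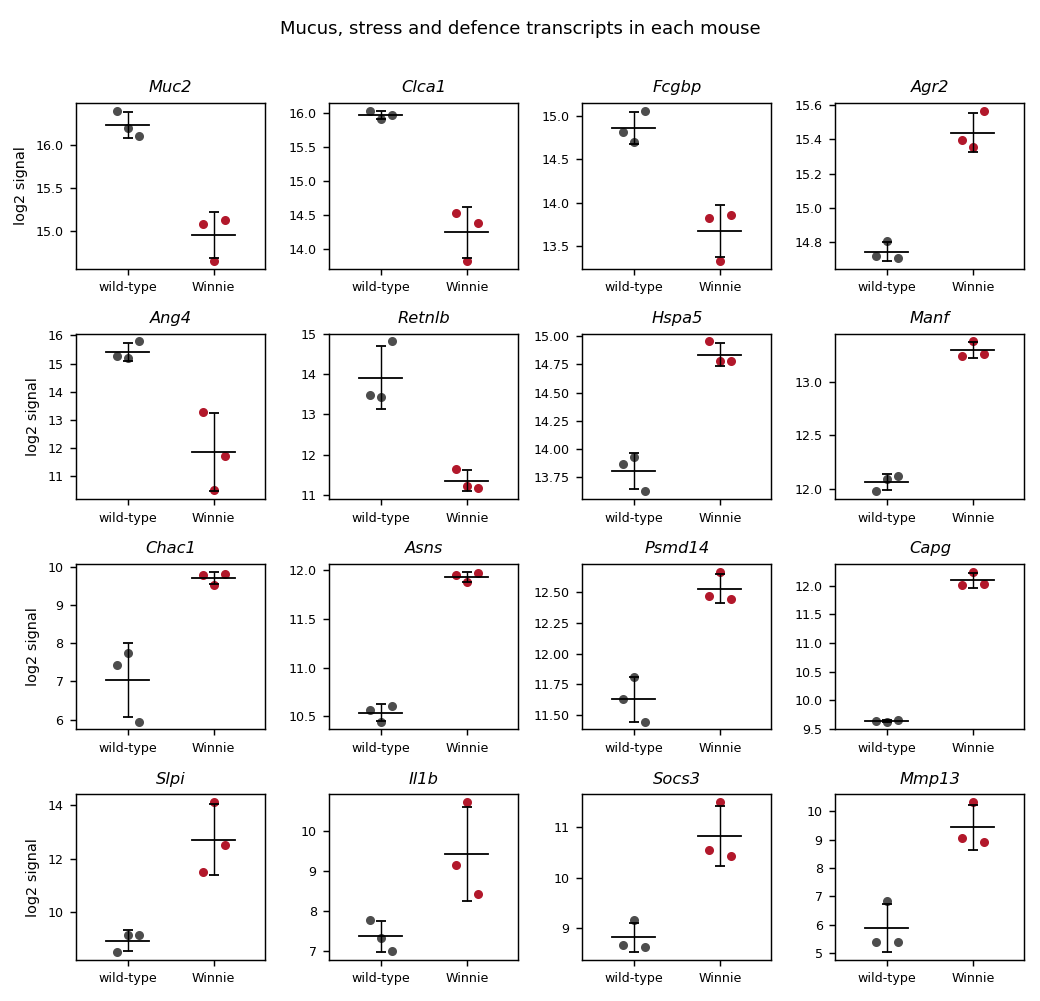
Log2 signal of 16 transcripts in each of the 3 wild-type and 3 *Winnie* mice (points), with the group mean (bar) and SD (whisker); each panel has its own scale. No panel has overlapping groups, which was a condition for naming the largest rises and falls. *Winnie* mouse 2 was the highest for *Slpi*, *Il1b*, *Socs3* and *Mmp13*.

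Some genes of epithelial defence and of cornified epithelium rose strongly, but neither list moved as a whole. *Clca4b*, a secreted protein of the Clca family, read 140.0, 115 and 196 in wild-type and 6172, 19440 and 6647 in *Winnie* mice, 63.3-fold higher (log2 5.98 ± 0.38, adjusted p = 5.66e-06). *Slpi*, the secretory leukocyte protease inhibitor, read 358, 565 and 568 against 2914, 17876 and 5781 (log2 3.78 ± 0.50, adjusted p = 0.000503). *Sprr2h*, a cornified envelope precursor, read 15.6, 4.54 and 33.9 against 691, 1742 and 413 (log2 5.89 ± 0.69, adjusted p = 0.000275, at least 9.23-fold). *Winnie* mouse 2 was the highest for these 3 genes, and no *Winnie* mouse overlapped a wild-type mouse. *Capg*, an actin-capping protein, read 797, 793 and 813 against 4131, 4857 and 4189 and was 5.47-fold higher. Of 20 tested genes of epithelial defence, 4 were higher [2] and 4 were lower [3], with a median log2 difference of -0.06 that became 0.35 with median centring and -0.04 with quantile normalization. Calls of higher signal were 8 with median centring. *Ang4* and *Retnlb* of this list were lower, as above, and lipocalin 2, *Lcn2*, did not pass (log2 1.16 ± 0.42, adjusted p = 0.0712). *Itln1* and *Nos2* were too dim over the 9 arrays to be tested. *Itln1* read 367.9, 454.6 and 1032 in wild-type and 2.999, 4.295 and 2.693 in *Winnie* mice, and *Nos2* was at most 20.56 in these 6 mice. Of 10 tested genes of cornified and squamous epithelium, 3 were higher [4] and none was lower (1 at an unadjusted p under 0.05), with a median log2 difference of -0.18 that became 0.23 with median centring and -0.07 with quantile normalization. The count of lower genes became 2 without *Winnie* mouse 2. *Sfn* (14-3-3 sigma, log2 2.06 ± 0.20) and *Anxa8* (log2 1.77 ± 0.23) rose with *Sprr2h*, whereas the basal keratin genes *Krt5* (log2 -1.58 ± 0.92) and *Krt14* (log2 -2.20 ± 0.74) did not pass. The summed signal of the squamous list was 5713 to 9939 in wild-type and 12041 to 22605 in *Winnie* mice. Of its untested members, *Lce3a* read 991.8, 933.5 and 31.06 in wild-type and 11.89, 125.6 and 3.02 in *Winnie* mice. *Sprr3* read 281.3, 396.6 and 116.2 against 3.469, 220.2 and 12.4. These and the other untested members of the squamous list overlapped between the groups.

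*Il1b*, *Il1rn* and *Socs3* were higher, while other immune genes such as *Il15* and *Ccl5* were lower. Of 19 tested cytokine and receptor genes, 5 were higher [2] and 2 were lower [0], with a median log2 difference of 0.26. The number higher was 11 with median centring and 3 without *Winnie* mouse 2 or wild-type mouse 3. *Il1b* read 222, 160.2 and 129 in wild-type and 570.0, 1696 and 344 in *Winnie* mice (log2 2.06 ± 0.45, adjusted p = 0.00803), and its antagonist *Il1rn* read 464, 703 and 775 against 1798, 2864 and 2149 (log2 1.82 ± 0.23, adjusted p = 0.000439). *Tnfrsf1b*, a TNF receptor, was higher (log2 1.14 ± 0.26) and *Il15*, which sustains intraepithelial lymphocytes, was lower (log2 -1.26 ± 0.24). Of 24 tested genes of innate sensing and its feedback, 4 were higher [1] and 3 were lower [0], with a median log2 difference of 0.18. Higher members numbered 15 with median centring and 2 without wild-type mouse 2. *Socs3*, the inhibitor that Stat3 induces, read 404, 568 and 396 against 1489, 2892 and 1378 (log2 2.01 ± 0.25, adjusted p = 0.000389), whereas *Socs2* was lower (log2 -1.06 ± 0.22). *Cd14*, a co-receptor for lipopolysaccharide, was higher (log2 0.92 ± 0.22) and *Tlr2* lower (log2 -1.36 ± 0.28). Of 18 tested chemokine genes, 3 were lower [1] and 1 was higher [0], with a median log2 difference of 0.14. The count of higher genes became 6 with median centring, 3 without *Eeyore* mouse 1 and 4 with the mean over probe sets. *Cxcl5*, a neutrophil attractant, read 112, 76.3 and 58.2 against 383, 593 and 184 (log2 2.13 ± 0.49, at least 3.7-fold), and *Ccl5*, which attracts T cells, was lower (log2 -2.27 ± 0.44). *Cxcl1* (log2 0.37 ± 0.28) and *Ccl20* (log2 0.30 ± 0.45) did not pass. Some chemokine genes were too dim to be tested. Of these, *Cxcl2* read 7.632, 26.81 and 7.538 in wild-type and 123.1, 296.2 and 68.57 in *Winnie* mice. *Ccl2* read 16.32, 47.38 and 6.317 against 71.11, 122.5 and 92.54, and *Ccl7* read 41.55, 5.72 and 20.89 against 81.2, 115.6 and 74.83. *Ccl3* and *Ccl22* overlapped between the groups. *Cd14* lost its call without wild-type mouse 2 (adjusted p = 0.0545). *Cxcl5* lost its call without *Winnie* mouse 2 (adjusted p = 0.0521).

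Among interferon-induced genes lower calls outnumbered higher ones in *Winnie*. Over all genes 12% were lower and 11.3% higher. Of 30 tested genes of this list, 13 were lower [8] and 4 were higher [0], with a median log2 difference of -0.25 that became 0.16 with median centring and -0.22 with quantile normalization. Those called higher numbered 8 with median centring, 7 without *Eeyore* mouse 1, 0 without *Winnie* mouse 2, 1 without wild-type mouse 1 or 2 and 2 without wild-type mouse 3. *Ifit1*, which binds viral RNA, read 3976, 3365 and 2782 in wild-type and 583, 790.5 and 711 in *Winnie* mice (log2 -2.28 ± 0.18, adjusted p = 1.71e-05). *Rsad2* (viperin) read 2797, 2749 and 2534 against 524, 467 and 699.7 (log2 -2.28 ± 0.15, adjusted p = 6.43e-06), and *Oas2* read 561, 520.2 and 541 against 121, 211 and 111 (log2 -1.93 ± 0.27, adjusted p = 0.000767). The groups did not overlap for these 3 genes. *Usp18* (log2 -1.73 ± 0.26), *Mx1* (log2 -1.32 ± 0.27) and *Irf7* (log2 -1.24 ± 0.18) were lower too. *Bst2* (log2 -0.85 ± 0.33), *Stat2* (log2 -0.27 ± 0.22) and *Ifitm3* (log2 -0.14 ± 0.26) did not pass. Among the members that were higher, the GTPase gene *Gbp2* read 2361, 2470 and 1706 against 7250, 9552 and 5763 (log2 1.78 ± 0.46, adjusted p = 0.0176), and *Iigp1* read 1298, 1252 and 1198 against 4303, 5351 and 3733 (log2 1.82 ± 0.48, adjusted p = 0.0197). *Gbp2* lost its call separately without *Winnie* mouse 2 (adjusted p = 0.0671) and wild-type mouse 3 (0.0541). *Iigp1* lost its call separately without *Winnie* mouse 2 (adjusted p = 0.0682), wild-type mouse 1 (0.0546) and wild-type mouse 2 (0.0583).

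The windows of *Ifit1* and *Gbp2*, which moved in opposite directions, are shown for the interferon-stimulated response element (ISRE). The search was for GAAA repeated after any 2 bases, which occurred on either strand in 3.99% of all genes with a window and in 13 of the 23 interferon-induced genes with one. They were in 4 of 9 genes called lower, 2 of 3 called higher and 7 of 11 not called. Matches are in capitals.
Ifit1 (chr19:34640639-34640938, plus strand): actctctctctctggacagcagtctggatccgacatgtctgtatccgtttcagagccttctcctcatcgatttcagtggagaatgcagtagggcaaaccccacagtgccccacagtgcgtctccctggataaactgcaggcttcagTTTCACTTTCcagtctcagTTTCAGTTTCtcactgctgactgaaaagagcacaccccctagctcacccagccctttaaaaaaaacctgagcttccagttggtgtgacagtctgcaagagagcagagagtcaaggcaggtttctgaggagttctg
Gbp2 (chr3:142620413-142620712, plus strand): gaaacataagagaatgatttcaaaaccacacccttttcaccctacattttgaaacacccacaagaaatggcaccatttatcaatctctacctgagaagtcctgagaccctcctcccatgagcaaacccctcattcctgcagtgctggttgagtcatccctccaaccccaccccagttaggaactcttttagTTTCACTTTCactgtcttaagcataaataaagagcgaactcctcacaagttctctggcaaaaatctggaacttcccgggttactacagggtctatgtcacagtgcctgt
Both promoters held the letters, with 2 matches in *Ifit1* and 1 in *Gbp2*.

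Markers of immune cells gave few calls. Of 10 tested T and NK cell genes, 3 were lower [0] and none was higher (0 at an unadjusted p under 0.05), with a median log2 difference of -0.77. *Gzma* (granzyme A) read 729.5, 554 and 427 in wild-type and 141, 23.5 and 73.8 in *Winnie* mice (log2 -3.15 ± 0.52, adjusted p = 0.00168, at least 5.49-fold), and *Gzmb* read 351, 299 and 234 against 15.1, 114 and 52.7 (log2 -2.70 ± 0.60, adjusted p = 0.00844, at least 3.08-fold). The summed signal of the list was 2333 to 2961 in wild-type and 989 to 1560 in *Winnie* mice, and the T cell receptor subunit *Cd3g* did not pass (log2 -0.65 ± 0.46). Of 16 tested B and plasma cell genes, 2 were higher [1] and 1 was lower [0], with a median log2 difference of 0.07. Calls of higher signal were 6 with median centring. *Prdm1*, a plasma cell factor that epithelium also uses, was higher (log2 1.36 ± 0.22), while the antibody joining chain gene *Jchain* did not pass (log2 0.27 ± 0.20). Of 21 tested macrophage and dendritic cell genes, 2 were higher [0] and none was lower (0 at an unadjusted p under 0.05), with a median log2 difference of 0.39. The number higher was 4 with quantile normalization, 11 with median centring, 7 without *Eeyore* mouse 1 and 0 without *Winnie* mouse 2 or wild-type mouse 1 or 2. *Mrc1* (log2 0.74 ± 0.21) and *C1qa* (log2 0.71 ± 0.22) were higher, and *Csf1r* (log2 0.10 ± 0.20) and *Adgre1* (log2 0.24 ± 0.24) did not pass. Of the neutrophil list only the calprotectin genes *S100a8* and *S100a9*, which inflamed epithelium also expresses, were bright enough to test. *S100a9* read 13.2, 68.4 and 8.76 against 526, 2257 and 250.1 (log2 5.06 ± 0.80, adjusted p = 0.0014, at least 7.77-fold) and *S100a8* was at least 6.75-fold higher. Of the mast cell and eosinophil list 1 gene was bright enough to test, and it did not pass (log2 -0.56). The untested *Mcpt1* read 11.99, 2.457 and 11.45 against 96.41, 90.93 and 127.4, and *Mcpt2* read 10.26, 6.954 and 4.776 against 207.3, 175.5 and 141.4. The other untested members of that list overlapped between the groups. Of 9 tested MHC class II genes, none was higher (0 at an unadjusted p under 0.05) and none was lower (1 at an unadjusted p under 0.05), with a median log2 difference of 0.14. Of 13 tested genes of MHC class I and peptide processing, 1 was lower [0] and none was higher (0 at an unadjusted p under 0.05), with a median log2 difference of 0.09. Those called lower numbered 3 without *Eeyore* mouse 1. Higher members numbered 2 with median centring. The light chain gene *B2m* read 29404, 34545 and 25335 against 16677, 21534 and 18157 (log2 -0.66 ± 0.18). *Mrc1* lost its call separately without *Winnie* mouse 2 (adjusted p = 0.106), wild-type mouse 1 (0.108) and wild-type mouse 2 (0.0761). *C1qa* lost its call separately without *Winnie* mouse 1 (adjusted p = 0.0619), *Winnie* mouse 2 (0.137), wild-type mouse 1 (0.11), wild-type mouse 2 (0.0794) and wild-type mouse 3 (0.0752). *B2m* lost its call separately without *Winnie* mouse 1 (adjusted p = 0.0732), *Winnie* mouse 3 (0.0682), wild-type mouse 1 (0.0653) and wild-type mouse 2 (0.0979). *B2m* (log2 -0.25, adjusted p = 0.312) did not pass with median centring.

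Most cell cycle genes were higher and several genes of the crypt base lower. Of 40 tested cell cycle and replication genes, 27 were higher [6] and none was lower (1 at an unadjusted p under 0.05), with a median log2 difference of 0.76. *Bub1*, a mitotic checkpoint kinase, read 232, 366 and 314 in wild-type and 798, 813 and 701 in *Winnie* mice (log2 1.36 ± 0.19, adjusted p = 0.000629). *Rrm2*, which supplies deoxyribonucleotides, read 679, 649 and 643 against 1450, 1868 and 1538 (log2 1.29 ± 0.14, adjusted p = 0.000183), and *Mki67*, the gene of Ki-67, was higher (log2 0.60 ± 0.12). The helicase subunits *Mcm2* (log2 -0.14 ± 0.21) and *Mcm7* (log2 0.08 ± 0.13) did not pass. Of 14 tested stem cell and Wnt target genes, 5 were lower [0] and none was higher (1 at an unadjusted p under 0.05), with a median log2 difference of -0.22 that became 0.19 with median centring and -0.33 with quantile normalization. The number lower was 3 with median centring. The count of higher genes became 2 with median centring. *Ascl2*, a factor of crypt base stem cells, read 529, 232 and 236 against 30.9, 114 and 25.9 (log2 -2.77 ± 0.62, adjusted p = 0.00874, at least 3.26-fold). The Wnt receptor gene *Lgr5* read 516, 399.5 and 396 against 190.1, 237 and 172 (log2 -1.13 ± 0.21, adjusted p = 0.00315), and *Ephb3* was lower (log2 -1.22 ± 0.21). Neither *Ascl2* nor *Lgr5* overlapped between the groups. *Myc* (log2 0.02 ± 0.23) and *Smoc2* (log2 0.02 ± 0.16) did not pass.

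Several matrix proteases, EGF-family ligands and effectors of cell death were higher. Of 21 tested genes of EGF signalling and wound repair, 9 were higher [3] and 2 were lower [0], with a median log2 difference of 0.59. Those called higher numbered 14 with median centring. Lower members numbered 0 with median centring. The collagenase gene *Mmp13* read 42.3, 116 and 41.7 in wild-type and 529.6, 1287 and 482 in *Winnie* mice (log2 3.55 ± 0.45, adjusted p = 0.000401, at least 7.28-fold), and the stromelysin genes *Mmp10* and *Mmp3* were at least 5.5-fold and at least 5.25-fold higher. *Ereg* (epiregulin), a ligand of the EGF receptor, read 265, 298 and 415 against 737, 1240 and 657 (log2 1.40 ± 0.31, adjusted p = 0.0084). Of 26 tested genes of apoptosis and necroptosis, 8 were higher [3] and 1 was lower [0], with a median log2 difference of 0.04. Calls of higher signal were 5 without *Winnie* mouse 2 or wild-type mouse 1 or 2. *Ripk3*, the kinase of necroptosis, read 509, 612 and 579 against 1510, 2255 and 1540 (log2 1.62 ± 0.17, adjusted p = 0.00017), and its substrate *Mlkl* was higher (log2 0.93 ± 0.23). *Casp8*, which restrains necroptosis, read 2297, 2317 and 2359 against 4434, 4961 and 4035 (log2 0.94 ± 0.14, adjusted p = 0.00101), and the cell cycle inhibitor *Cdkn1a* was higher (log2 0.85 ± 0.11). The groups did not overlap for *Mmp13*, *Ripk3* or *Casp8*. *Mmp10* lost its call without *Winnie* mouse 2 (adjusted p = 0.0521). *Mlkl* lost its call separately without *Winnie* mouse 2 (adjusted p = 0.0619), wild-type mouse 1 (0.0555) and wild-type mouse 2 (0.0531).

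Genes of absorptive transport, the epithelial surface and tight junctions gave calls in both directions. Over all genes 11.3% were higher and 12% lower. Transport and barrier function were not measured by these arrays. Of 27 tested transport genes, 6 were lower [1] and 3 were higher [2], with a median log2 difference of -0.18 that became 0.23 with median centring and -0.17 with quantile normalization. The number higher was 10 with median centring and 5 without *Eeyore* mouse 3. *S100g* (calbindin D9k), the vitamin D-dependent calcium carrier, read 3470, 3217 and 1536 in wild-type and 131, 127 and 8.3 in *Winnie* mice (log2 -5.64 ± 1.05, adjusted p = 0.0034, at least 22.9-fold), and the vitamin D receptor gene *Vdr* read 5247, 4994 and 4915 against 2924, 1898 and 2665 (log2 -1.04 ± 0.22). *Slc20a1*, a phosphate transporter, read 9508, 11255 and 9348 against 2638, 3142 and 3560 (log2 -1.69 ± 0.13, adjusted p = 1.29e-05), and the water channel *Aqp4* read 4535, 4781 and 6809 against 14551, 12041 and 15985 (log2 1.42 ± 0.15, adjusted p = 0.000157). None of these 4 genes overlapped between the groups. *Slc26a3*, the chloride exchanger, and *Car1*, a carbonic anhydrase, did not pass (log2 -0.10 ± 0.12 and log2 -0.19 ± 0.14). Of 18 tested surface and brush border genes, 3 were higher [2] and 2 were lower [0], with a median log2 difference of -0.12 that became 0.29 with median centring and -0.13 with quantile normalization. Higher members numbered 9 with median centring. The count of lower genes became 4 without *Winnie* mouse 1. *Krt20*, a keratin of mature surface cells, read 19254, 19386 and 19646 against 40220, 36029 and 36005 (log2 0.94 ± 0.09, adjusted p = 0.00012), and *Guca2b* (uroguanylin) was lower (log2 -1.10 ± 0.17). Of 17 tested tight junction and adhesion genes, 3 were lower [0] and 2 were higher [0], with a median log2 difference of -0.05 that became 0.36 with median centring and -0.11 with quantile normalization. The count of higher genes became 10 with median centring, 4 without *Eeyore* mouse 1 and 4 with the mean over probe sets. The claudins *Cldn2* (log2 -0.97 ± 0.18) and *Cldn15* (log2 -1.14 ± 0.25), which form cation pores, were lower and the sealing claudin *Cldn8* was higher (log2 0.70 ± 0.13).

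On the deposited scale, calls of metabolic genes were mostly lower in some pathways and mostly higher in others. Several of these counts changed with the scaling. Of 28 tested xenobiotic enzymes and pumps, 11 were lower [3] and 3 were higher [0], with a median log2 difference of -0.48. Those called lower numbered 7 with median centring. Those called higher numbered 7 with median centring and 1 without wild-type mouse 2 or 3. The cytochrome P450 gene *Cyp4b1* read 2229, 1906 and 1165 in wild-type and 885, 306 and 258 in *Winnie* mice (log2 -2.05 ± 0.39, adjusted p = 0.00366), and *Cyp2d26* read 1346, 1227 and 854 against 325, 206 and 314 (log2 -2.02 ± 0.23, adjusted p = 0.000267). Of 25 tested genes of fatty acid oxidation and ketogenesis, 5 were lower [1] and none was higher (2 at an unadjusted p under 0.05), with a median log2 difference of -0.25 that became 0.16 with median centring and -0.31 with quantile normalization. The number lower was 10 with quantile normalization, 2 with median centring, 2 without *Winnie* mouse 2 or wild-type mouse 1, 3 without *Winnie* mouse 3 or wild-type mouse 2 and 3 with the mean over probe sets. Calls of higher signal were 6 with median centring. The regulators *Ppargc1a*, at 1874, 1298 and 1777 against 498, 243 and 561 (3.99-fold), and *Ppara* (log2 -1.71 ± 0.32) were lower, whereas *Cpt1a*, which controls entry of fatty acids into mitochondria, did not pass (log2 -0.06 ± 0.13). Of 25 tested genes of sterol and fatty acid synthesis, 10 were higher [1] and 1 was lower [0], with a median log2 difference of 0.21. The number higher was 5 without *Winnie* mouse 2 or wild-type mouse 2, 6 without wild-type mouse 1 and 6 with the mean over probe sets. Lower members numbered 3 with quantile normalization. *Fdps* (farnesyl diphosphate synthase) read 2271, 2304 and 2781 against 4070, 5559 and 4081 (log2 0.89 ± 0.13). Of 37 tested genes of the respiratory chain and ATP synthase, 8 were higher [1] and none was lower (0 at an unadjusted p under 0.05), with a median log2 difference of 0.14. Higher members numbered 36 with median centring, 5 without *Winnie* mouse 3 or wild-type mouse 2 or 3 and 3 without wild-type mouse 1. *Cycs* (cytochrome c) was higher (log2 0.62 ± 0.12). The summed signal of this list was 598089 to 610738 in wild-type and 639874 to 683461 in *Winnie* mice. In the brightest quartile of all genes 26.2% were higher, with a median log2 difference of 0.12. Of 18 tested antioxidant genes, 3 were higher [0] and 1 was lower [0], with a median log2 difference of 0.05. The count of higher genes became 12 with median centring. *Gpx2*, a glutathione peroxidase of epithelium, was higher (log2 0.90 ± 0.14) and *Gclc*, which makes glutathione, lower (log2 -0.94 ± 0.16).

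Several clock genes differed between the groups. Of 13 tested clock genes, 5 were lower [1] and 2 were higher [1], with a median log2 difference of -0.96. The count of lower genes became 3 with median centring. *Dbp*, an output factor of the clock, read 914, 712 and 1217 in wild-type and 11.4, 119 and 120.3 in *Winnie* mice (log2 -4.08 ± 0.84, adjusted p = 0.00597, at least 8.64-fold). *Tef*, of the same family, read 862, 842 and 798 against 379.5, 336 and 242 (log2 -1.41 ± 0.22, adjusted p = 0.00127), and *Nr1d2* (Rev-erb beta) read 3577, 4023 and 4399 against 1180, 1471 and 1526 (log2 -1.53 ± 0.17, adjusted p = 0.000191). None of these 3 overlapped between the groups. *Arntl* (Bmal1, log2 0.69 ± 0.15) and *Cry1* (log2 1.06 ± 0.23) were higher, and *Per2*, at 117, 243 and 258 against 117, 112 and 71, did not pass. The hour at which tissue was taken is not given in the sources used here, and its part in these values was not tested.

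Many markers of the bowel wall were lower. Of 16 tested smooth muscle genes, 16 were lower [14] and none was higher (0 at an unadjusted p under 0.05), with a median log2 difference of -1.10. Their summed signal was 226787 to 234585 in wild-type and 106062 to 116488 in *Winnie* mice. *Myh11*, smooth muscle myosin, read 13004, 13338 and 11713 in wild-type and 5174, 5091 and 4261 in *Winnie* mice (log2 -1.39 ± 0.10, adjusted p = 1.29e-05), and *Acta2*, smooth muscle actin, read 43058, 40136 and 42655 against 23712, 18946 and 19539 (log2 -1.02 ± 0.09, adjusted p = 5.92e-05). Of 12 tested genes of enteric neurons, glia and Cajal cells, 6 were lower [0] and none was higher (0 at an unadjusted p under 0.05), with a median log2 difference of -1.11. Those called lower numbered 3 with median centring and 3 without *Winnie* mouse 2. *Kit*, of the pacemaker cells of Cajal (log2 -1.64 ± 0.22), and *Snap25*, of synaptic vesicle release (log2 -1.63 ± 0.33), were lower. Of 28 tested fibroblast and matrix genes, 11 were lower [2] and none was higher (0 at an unadjusted p under 0.05), with a median log2 difference of -0.46. The number lower was 3 with median centring. The metalloproteinase inhibitor *Timp3* was lower (log2 -1.44 ± 0.13), and the collagen gene *Col1a1* did not pass (log2 -0.12 ± 0.18). Of 10 tested endothelial genes, 3 were lower [0] and none was higher (0 at an unadjusted p under 0.05), with a median log2 difference of -0.67. Lower members numbered 0 with quantile normalization or median centring, 1 without *Winnie* mouse 3 or wild-type mouse 2 or 3 and 0 without wild-type mouse 1. Of 8 tested adipocyte genes, 3 were lower [0] and none was higher (0 at an unadjusted p under 0.05), with a median log2 difference of -0.78. The count of lower genes became 1 with median centring or the mean over probe sets, 6 without *Winnie* mouse 1 and 0 without *Winnie* mouse 2 or 3 or wild-type mouse 1 or 2. *Adipoq* (adiponectin) read 3955, 4320 and 2744 against 2119, 500.1 and 996 (log2 -1.82 ± 0.59). Of 5 tested endothelin genes, 3 were lower [0] and none was higher (0 at an unadjusted p under 0.05), with a median log2 difference of -1.14. *Edn1*, a vasoconstrictor peptide, read 1425, 1133 and 957 against 448, 324 and 422 (log2 -1.55 ± 0.23). Of 16 tested enteroendocrine genes, 4 were lower [0] and 2 were higher [0], with a median log2 difference of -0.08 that became 0.33 with median centring and -0.09 with quantile normalization. Those called lower numbered 2 without wild-type mouse 2. Somatostatin, *Sst*, was lower (log2 -1.46 ± 0.19), peptide YY, *Pyy*, was higher (log2 0.57 ± 0.14), and chromogranin A, *Chga*, did not pass (log2 -0.01 ± 0.21). The part of the share of bowel wall in the other differences was not tested. *Adipoq* lost its call separately without *Winnie* mouse 2 (adjusted p = 0.167), *Winnie* mouse 3 (0.102), wild-type mouse 1 (0.117), wild-type mouse 2 (0.128) and wild-type mouse 3 (0.0592). *Pyy* lost its call without wild-type mouse 2 (adjusted p = 0.0543). *Adipoq* (log2 -1.42, adjusted p = 0.0672) did not pass with median centring, nor with the mean over probe sets.

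*Winnie* was also set directly against *Eeyore*, the line with the D4-domain allele. Between them 297 of 11446 genes differed (2.59%), 148 higher (1.29%) and 149 lower (1.3%) in *Eeyore*, and 519 probe sets (2.3%). *Muc2* (log2 0.14 ± 0.12, *Eeyore* over *Winnie*) and *Hspa5* (log2 0.20 ± 0.10) did not pass. Of the 25 ER chaperones and foldases, however, 5 were higher in *Eeyore* and 1 lower (13 and 1 at an unadjusted p under 0.05). Their median was 0.33 against -0.01 over all genes. *Ang4* read 48517, 32768 and 29767 in *Eeyore*, above all 3 *Winnie* mice (log2 3.30 ± 0.50, adjusted p = 0.00323), and *Retnlb* read 42105, 33274 and 21976 (log2 3.59 ± 0.32, adjusted p = 7.39e-05). Of the 30 interferon-induced genes 13 were higher in *Eeyore* and 0 lower (18 and 0 at an unadjusted p under 0.05), with a median of 0.93 against -0.01 over all genes. *Ifit1* read 3292, 3223 and 2314 in *Eeyore* (log2 2.08 ± 0.18, adjusted p = 4.59e-05), and *Oas2* read 589, 693 and 385 (log2 1.93 ± 0.27, adjusted p = 0.0024). *Gbp2*, at 3478, 8507 and 20464, did not pass (log2 0.20 ± 0.46). *Gzma* (log2 3.46 ± 0.52, adjusted p = 0.00317) and *Gzmb* (log2 3.34 ± 0.60, adjusted p = 0.01) were higher in *Eeyore*. *Mmp3* read 110.5, 36.4 and 46.8 (log2 -3.05 ± 0.52, adjusted p = 0.0073), and the folate enzyme gene *Aldh1l2* was lower as well (log2 -1.40 ± 0.28, adjusted p = 0.0201). The sialyltransferase gene *St3gal4* read 56.4, 63.4 and 68.3 in *Eeyore* against 2593, 3207 and 2853 in *Winnie* mice (log2 -5.52 ± 0.18, adjusted p = 6.16e-09). The MHC class I genes *H2-Q2* (log2 -4.53 ± 0.27, adjusted p = 1.8e-06) and *H2-T18* (log2 3.22 ± 0.28, adjusted p = 5.73e-05) differed in opposite directions. The median was 2.05 for the 6 pancreas and small bowel genes, of which 0 passed. It was -1.20 for 8 adipocyte and -0.43 for 16 smooth muscle genes, of which 1 and 4 were lower in *Eeyore*. The part of pancreatic tissue, fat or bowel wall in the differences between the lines was not tested. The *Eeyore* line has a mixed background that includes NOD-SCID, so allele and strain background cannot be told apart here.

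**Figure D5:**
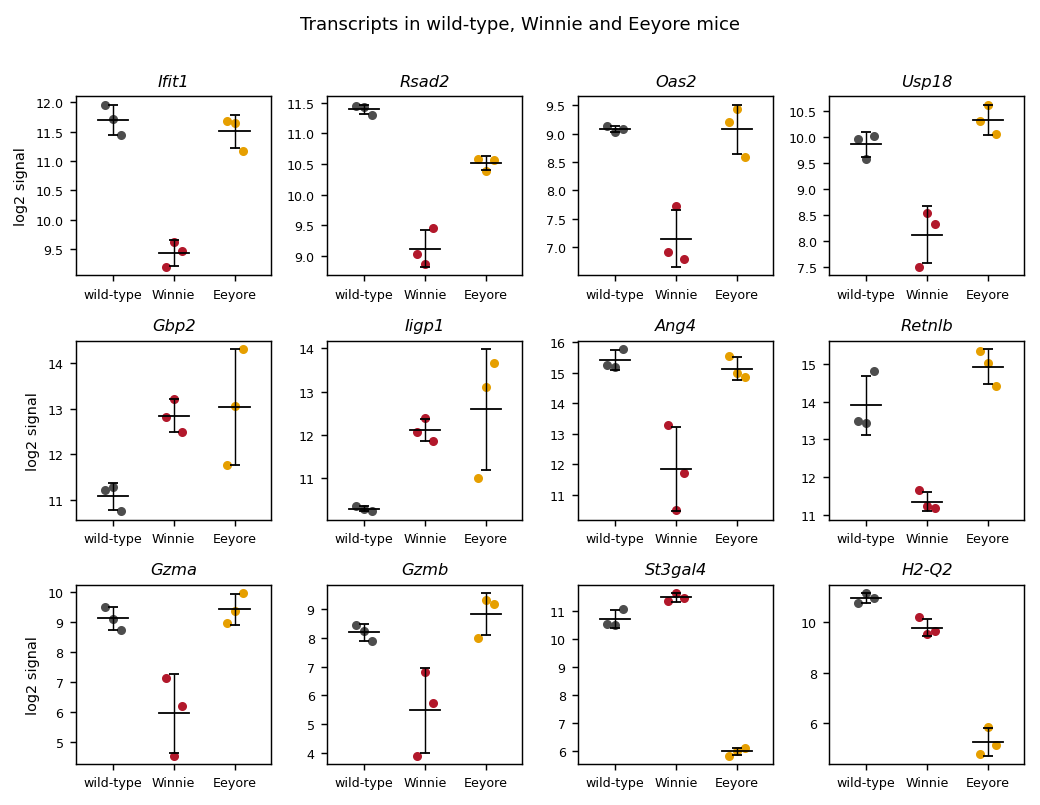
Log2 signal of 12 transcripts in the 3 wild-type, 3 *Winnie* and 3 *Eeyore* mice (points), with group means (bars) and SD (whiskers); each panel has its own scale. The *Winnie* group had the lowest mean for *Ifit1*, *Rsad2*, *Oas2*, *Usp18*, *Ang4*, *Retnlb*, *Gzma* and *Gzmb*, and *Eeyore* had the lowest for *St3gal4* and *H2-Q2*.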

How the data were processed

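RNA of 3 *Winnie*, 3 wild-type and 3 *Eeyore* mice had been hybridised to Affymetrix Mouse 430 2.0 arrays, 1 array per mouse. The authors deposited 1 linear signal intensity per probe set, scaled so that the trimmed mean of each array is alike. The algorithm behind the signal is not given in the sources used here. The p-values measure the spread between these mice. Intensities were taken to log2 without a pseudocount. Probe sets with a mean log2 signal at or above the median of all non-control probe sets (6.43, a signal of 85.9) were tested. All 9 arrays entered 1 linear model of group means (limma 3.58.1, R 4.3.3), with eBayes moderation that follows intensity, and p-values were adjusted by Benjamini-Hochberg over 22519 probe sets with a threshold of 0.05. For genes, the brightest of the probe sets to which the platform annotation gives a single symbol was taken. An exact permutation test of 3 against 3 mice cannot go below 0.1 (two-sided) and was not used. The precision is limited by the number of arrays.

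The gene lists, the named genes and the motifs were chosen with earlier results of these data known. Named genes were, among called genes whose groups did not overlap, the 20 that rose most and the 20 that fell most with a mean signal in the brighter group of at least 200, the first 2 and the 4 most changed called genes of each list, the 12 largest *Eeyore* to *Winnie* differences, and *Muc2*, *Hspa5* and sex-linked genes. Named outside this rule, after their values were seen, were *Agr2*, *Arntl*, *Atf3*, *Atf4*, *Atf6*, *Atoh1*, *Bst2*, *Calr*, *Canx*, *Cpa1*, *Cry1*, *Ctrb1*, *Ddit3*, *Eif2ak3*, *Ern2*, *Fcgbp*, *Herpud1*, *Ifitm3*, *Irf7*, *Krt14*, *Krt5*, *Mcm2*, *Mcm7*, *Mx1*, *Myc*, *Nupr1*, *Smoc2*, *Stat2*, *Txndc5*, *Usp18*, *Vdr* and *Zg16*. The same holds for the untested *Ccl2*, *Ccl3*, *Ccl7*, *Ccl22*, *Cxcl2*, *Itln1*, *Lce3a*, *Mcpt1*, *Mcpt2*, *Nos2* and *Sprr3*. Lists were described by counts and medians. Alternatives covered scaling, filter, offset (32 units), variance model, groups fitted, fold minimum, mean over probe sets, the mouse number as a block and leaving out mice. Mice of the same number deviated together weakly at most (correlations -0.00821 to 0.164, 1 of 9 over 0.1). Between *Winnie* and wild-type the same-number correlations were 0.0677, 0.0849 and 0.164, above those of different numbers (-0.0952 to 0.0199). On simulated data with 200 of 22519 probe sets changed, the test recovered 4.48%, 35.8% and 83.3% of log2 changes of 0.5, 1 and 2, with 2.38% false calls. In the data 4834 probe sets passed, so the adjustment was stricter in the simulation, and these shares do not carry over to the data. The simulated noise was independent between probe sets and held no difference of sex, pancreas or bowel wall. Figures were drawn with matplotlib 3.10.9.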

Additional observations from a re-analysis of the deposited data

Results flagged for a closer look

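The log2 difference of *Eeyore* over *Winnie* passed the limma test of the difference itself (adjusted p under 0.05) for 31 of the genes chosen for naming, 20 higher and 11 lower in *Eeyore*. The background over all genes is 2.59%, but 12 of the genes were chosen for this difference. Among goblet and defence genes the differences were *Ang4* 3.30, *Retnlb* 3.59, *Clca1* 0.97, *Gal3st2* 1.14 and *Guca2b* 0.80. Among interferon-induced and antigen presentation genes the differences were *Ifit1* 2.08, *Oas2* 1.93, *Rsad2* 1.39, *B2m* 1.11, *H2-Q2* -4.53 and *H2-T18* 3.22. Among lymphocyte and chemokine genes the differences were *Gzma* 3.46, *Gzmb* 3.34 and *Ccl6* 0.57. Among ER and folate enzyme genes the differences were *Sdf2l1* 0.83 and *Aldh1l2* -1.40. Among muscle and fat markers the differences were *Myh11* -0.58, *Synpo2* -0.67, *Fabp4* -1.67 and *Myl7* 3.20. The remaining genes were *Mmp3* -3.05, *Erdr1* 3.96, *Slc20a1* 0.75, *Cdh17* -0.51, *Fdps* 0.64, *Abcb1a* -0.65, *Srxn1* -0.72, *Chga* -1.01, *St3gal4* -5.52, *Ctrc* 4.53 and *Pla2g4c* 4.51. Groups of 3 mice were too small to test a single mouse as an outlier. Strain background, which differs between the lines, cannot be told apart from the *Muc2* allele in these differences. The part of pancreatic tissue, fat or bowel wall in them was not tested.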

How the results depend on the processing

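The test of *Winnie* against wild-type gave 4834 probe sets, 2195 higher and 2639 lower, and 8087 probe sets, 7234 higher and 853 lower with median centring. It gave 1553 probe sets, 655 higher and 898 lower against a 1.2-fold minimum, 1541 probe sets, 360 higher and 1181 lower at 2-fold, and 1990 probe sets, 424 higher and 1566 lower by the 2-fold ratio of group averages with no test. Leaving out wild-type mice 1 and 2 together, chosen after seeing the data, left 606 probe sets, 355 higher and 251 lower. Testing only probe sets above the 75th percentile of signal gave 1453 lower. Leaving out 1 mouse at a time gave 2896 to 5148 in all, 1464 to 2294 higher and 1432 to 2854 lower, with 3159 in all without *Winnie* mouse 2, 2998 without wild-type mouse 1 and 2896 without wild-type mouse 2. *Eeyore* against *Winnie* gave 519 probe sets, 282 without the intensity trend, 226 against a 1.2-fold minimum, 275 at 2-fold and 295 to 848 with 1 mouse left out (848 without *Eeyore* mouse 1, 329 without *Eeyore* mouse 2, 295 without *Winnie* mouse 3). The other alternatives kept these counts within 1.5 times. Mouse numbers were not taken as pairs in the main test. As a replicate block they gave 4872 probe sets, 2238 higher and 2634 lower (524 for *Eeyore* against *Winnie*), and 4 of 177 called named genes lost the call. Of those, 58 kept it under every alternative, 20 lost it with median centring, 15 with quantile normalization, 0 to 34 with 1 mouse left out and 113 without wild-type mice 1 and 2. Median centring turned the sign of 11 of 204 genes of the naming rule, 7 of them called on neither scale and the others *Acadm* (0.099), *Cox4i1* (0.314), *Slc26a3* (0.306) and *Xbp1* (0.408), and leaving out wild-type mice 1 and 2 turned that of *Cela1* (0.012), on the log2 scale. Without the intensity trend 27 of the 177 called named genes lost the call, and with the robust variance model 13 did. *Gbp2* and *Iigp1* lost it under both, and *Mmp10* with the robust variance model. The cause of these changes was not tested. With 3 arrays per group, small changes are often missed, and dim probe sets were not tested.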
